A study of Drosophila melanogaster with 17 samples.

Results

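The gene agt was read from the only probe set of the array with that symbol, in eye discs of Drosophila larvae with intact or mutant E2F genes, with and without gamma irradiation. It is 1 of 11982 genes with a probe set of their own symbol and was chosen by its measured values in these arrays, that is, by its untreated level, its irradiated level and its irradiation change in each genotype. Its values are therefore given as a description, with no test. The probe set was found by its symbol in the array annotation, and the identity of the gene was not checked by another measure.

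agt encodes the fly alkylguanine alkyltransferase, the counterpart of human MGMT. The enzyme takes an alkyl group from a damaged guanine onto one of its own cysteines and is used up in the act, so each molecule repairs a single lesion and the pool has to be replaced by new synthesis. This direct reversal works beside base excision repair, mismatch repair and translesion synthesis, which deal with alkylated and oxidised bases in other ways. Irradiated larval discs are known to respond to DNA breaks with repair and cell death genes, many of them under p53, and E2F proteins, which bind DNA together with Dp, drive genes of DNA synthesis and repair.

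Imaginal eye discs were taken from 3rd instar larvae reared at 25°C. They came from wild type larvae, from larvae labelled dDP mutant, and from larvae labelled de2f1, in which E2f1 is deleted in the posterior of the disc, so that its other cells may still carry the gene. Each genotype was either untreated or received 40 Gy of gamma radiation, and discs were dissected 4 h later. The allele of dDP and the means of the posterior deletion are not given in the sources used here, nor is the number of animals behind an array. There were 3 biological replicates of each group except irradiated wild type, where the samples given were numbers 1 and 3 (number 2 is not analysed here), making 17 arrays of the Affymetrix Drosophila Genome 2.0 type, each from 50 ng of RNA. All levels below are log2 RMA values per probe set as deposited, and differences are on that log2 scale unless a linear signal is named. In whole discs, fewer cells of a type and less RNA per cell cannot be told apart.

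The arrays were alike in overall signal, with medians of 5.82 to 5.99 and lower quartiles of 4.51 to 4.60. The 10 measured eye disc markers of 11 averaged 10.52 to 10.83 on every array. Dp read 8.06 to 8.94 on the 6 dDP arrays and 10.04 to 10.50 on the other 11, and was lower in untreated dDP than in untreated wild type discs by -1.96 ± 0.19 (limma, Benjamini-Hochberg adjusted p = 2.5e-06). E2f1 has no probe set of its own symbol, so the de2f1 label was not checked in this way. Libraries differed in other tissues. Salivary gland markers (8 of 8 measured) averaged 5.96 to 6.84 in untreated dDP discs, 7.18 on irradiated dDP array 1, 6.68 on untreated de2f1 array 1, and 10.39 to 13.05 elsewhere. Fat body markers (3 of 6) averaged 13.42 on untreated dDP array 1 against 5.99 to 12.23 on the others. The difference between 3-prime and 5-prime actin controls, a sign of RNA quality, was 3.05 and 3.26 on untreated dDP arrays 2 and 3, against 1.69 to 2.28 on all other arrays. Calls that were lost without arrays 2 and 3 are named with the results.

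Untreated discs carried agt at 3 separate levels. In wild type discs agt read 8.54, 8.29 and 8.49. In de2f1 discs it read 7.74, 7.59 and 7.81. In dDP discs it read 9.59, 9.86 and 9.96. Every dDP array lay above every wild type array and every de2f1 array lay below, so the mutants departed from wild type in opposite directions. On these arrays the gene stood at percentile 64.5 to 66.0 of all probe sets in wild type, 60.5 to 61.5 in de2f1 and 75.9 to 80.1 in dDP discs.

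Untreated dDP discs exceeded untreated wild type by 1.36 ± 0.11 (SE of the limma fit, n = 3 against 3), which is 2.57-fold. Over the 9 pairs of arrays the difference ran from 1.04 to 1.67. It was 1.15 when dDP arrays 2 and 3, with the larger actin difference, were both left out, and 1.28 to 1.47 when any 1 array was left out. Among 18769 probe sets this was the rise of rank 355, in a comparison where 12.1% of probe sets were called higher and 15.9% lower at an adjusted p under 0.05.

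The de2f1 difference was smaller and ran the other way, at -0.73 ± 0.11 (n = 3 against 3), or 1.66-fold lower than wild type. Its 9 pairs spanned -0.96 to -0.48. It was the fall of rank 318 in a comparison with 3.89% of probe sets called higher and 5.1% lower. Both mutant differences were taken against the same untreated wild type arrays, and so are not independent of each other.

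**Figure D1:**
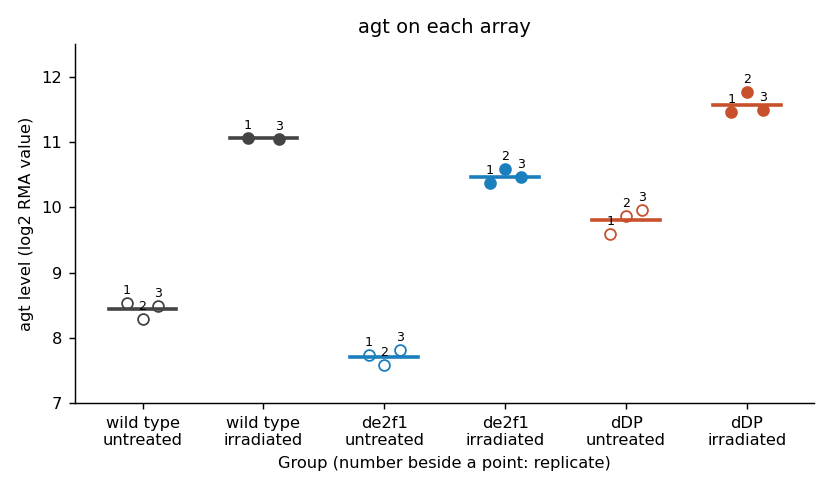
agt on each of the 17 arrays, as log2 RMA value, by genotype and treatment. Each point is 1 array with its replicate number (open for untreated, filled for irradiated), and bars are group means. The 6 groups do not overlap, from 7.59 to 7.81 in untreated de2f1 discs up to 11.46 to 11.76 in irradiated dDP discs.

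After irradiation agt was high on all 8 arrays. Irradiated wild type discs read 11.06 and 11.05. Irradiated de2f1 discs read 10.37, 10.58 and 10.46. Irradiated dDP discs read 11.46, 11.76 and 11.49. The lowest irradiated array of any genotype lay above the highest untreated array of any genotype, and the order of the genotypes (dDP, wild type, de2f1) was that of the untreated discs. In irradiated wild type discs agt stood at percentile 90.0 and 90.3 of all probe sets, and it reached 94.5 on irradiated dDP array 2.

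The 6 group means, from high to low, were 11.57 ± 0.17 (SD, n = 3) in irradiated dDP, 11.06 ± 0.01 (n = 2) in irradiated wild type and 10.47 ± 0.11 (n = 3) in irradiated de2f1 discs. Untreated discs followed with 9.80 ± 0.19 in dDP, 8.44 ± 0.13 in wild type and 7.71 ± 0.11 in de2f1 (n = 3 each). No neighbours in this order overlapped. The smallest gap, 0.39, lay between the lowest irradiated dDP and the highest irradiated wild type array. The largest, 1.04, separated untreated dDP from untreated wild type discs.

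The irradiation change of agt was 2.62 ± 0.12 in wild type discs, 6.13-fold, with the 6 pairs of arrays at 2.51 to 2.78. In de2f1 discs it was 2.76 ± 0.11, 6.78-fold, and the 9 pairs ran from 2.57 to 3.00. In dDP discs it was 1.77 ± 0.11, 3.40-fold, and the 9 pairs ran from 1.50 to 2.18. It was thus among the largest rises of each genotype, at rank 7, 9 and 36 of 18769. Probe sets called higher and lower after irradiation made up 2.59% and 1.92% in wild type, 1.37% and 0.927% in de2f1, and 4.45% and 4.38% in dDP discs.

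How the genotypes compare in this change depended on the scale. On the log2 scale the dDP change was smaller than that of wild type by 0.85, at -0.85 ± 0.16, and no dDP pair of arrays reached the lowest wild type pair. Without untreated dDP arrays 2 and 3 the dDP change was 1.98 and its difference from wild type -0.63. The de2f1 change differed from that of wild type by 0.15 ± 0.16, about the size of its error.

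In linear signal the order turned. Set against the mean of the untreated arrays, irradiated wild type arrays gained 1794 and 1771 signal units. The de2f1 arrays gained 1114, 1324 and 1201 units. The dDP arrays gained 1913, 2580 and 1976 units. Here every dDP array gained more than both wild type arrays and every de2f1 array gained less. Relative to the wild type change, the difference of linear group means was 373 units for dDP and -570 units for de2f1. The linear group means themselves rose from 348 ± 31.5 to 2131 ± 15.8 in wild type, from 210 ± 16.0 to 1423 ± 105 in de2f1 and from 899 ± 117 to 3055 ± 368 in dDP discs (SD). The relation of signal to the amount of RNA near the top of the range was not tested.

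**Figure D2:**
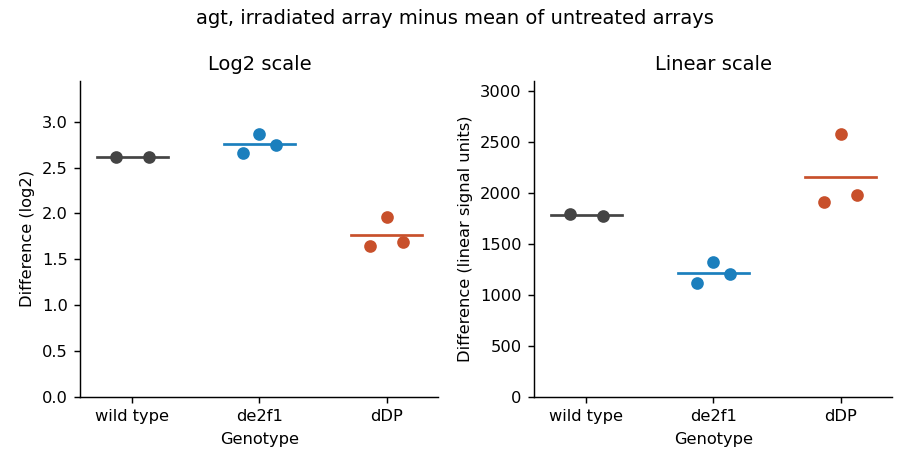
agt on each irradiated array minus the mean of the untreated arrays of the same genotype, in log2 units (left) and in linear signal units (right), with bars at the group means. The dDP arrays lie lowest on the log2 scale (1.65 to 1.96) and highest on the linear scale (1913 to 2580), while the de2f1 arrays lie lowest on the linear scale (1114 to 1324).

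After irradiation dDP discs stayed above wild type by 0.51 ± 0.12 (pairs 0.39 to 0.71), 1.43-fold. The de2f1 discs stayed below by -0.59 ± 0.12 (pairs -0.69 to -0.47), 1.50-fold lower. These 2 differences share the irradiated wild type arrays.

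Markers of other tissues moved with some of these groups. Hemocyte markers (8 of 8 measured) averaged 8.86 to 9.30 in untreated wild type, 9.28 to 10.1 in untreated de2f1 and 7.60 to 7.87 in untreated dDP discs. In irradiated discs they averaged 8.62 to 8.79, 8.93 to 9.40 and 7.13 to 7.59 in the same order. Their order over the genotypes was the opposite of that of agt, and their part in the agt levels was not tested. Salivary gland markers differed widely within irradiated dDP discs (7.18, 13.05 and 12.92), where agt read 11.46, 11.76 and 11.49, and within untreated de2f1 discs (6.68, 13.02 and 11.34), where agt read 7.74, 7.59 and 7.81. Fat body markers averaged 13.42, 7.88 and 8.23 on the untreated dDP arrays, where agt read 9.59, 9.86 and 9.96.

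The other repair routes for damaged bases were read from a list of 24 genes besides agt, 19 of which had a probe set of their own. AlkB, the measured fellow of agt in direct reversal and an oxidative demethylase in bacteria, stayed between 9.06 and 9.50 on all 17 arrays. Its irradiation difference was 0.09 in wild type, 0.00 in de2f1 and -0.14 in dDP discs, and none passed the test (limma, Benjamini-Hochberg adjusted p of 0.72, 0.998 and 0.236). The photolyase genes phr and phr6-4 were not measured by a probe set of their own symbol.

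In irradiated wild type discs 6 of the 19 genes rose and 2 fell, beside 2.59% and 1.92% of all probe sets. In de2f1 discs 5 rose and 1 fell, beside 1.37% and 0.927% of all probe sets. In dDP discs 5 rose and 1 fell, beside 4.45% and 4.38%, with fewer calls without untreated dDP arrays 2 and 3. The list medians were 0.10, 0.01 and 0.05, against 0.00, -0.01 and -0.03 over all probe sets, so most members lay near no difference and a few far above it. agt, at 2.62, 2.76 and 1.77, lay above the highest member in each genotype (1.38, 1.04 and 0.88). Because agt was chosen by this change, its place above the list partly followed from the choice.

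Translesion synthesis, in which special polymerases copy past damaged bases, held most of the rises. Of its 5 measured genes 4 rose in wild type, 3 in de2f1 and 3 in dDP discs, and none fell. Over all probe sets 2.59%, 1.37% and 4.45% were called higher in these genotypes. PolZ1, the catalytic subunit of polymerase zeta, read 8.89, 8.67 and 8.92 in untreated wild type and 10.24 and 10.16 in irradiated wild type discs. It read 8.67, 8.53 and 8.63 in untreated and 9.55, 9.75 and 9.63 in irradiated de2f1 discs. It read 8.99, 9.22 and 9.39 in untreated and 10.01, 10.33 and 9.88 in irradiated dDP discs. Irradiated and untreated arrays were apart in every genotype, and here irradiated dDP and irradiated wild type discs overlapped, unlike for agt.

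PolZ1 rose by 1.38 ± 0.13 in wild type, 1.04 ± 0.12 in de2f1 and 0.88 ± 0.12 in dDP discs (limma, Benjamini-Hochberg adjusted p = 1.4e-05, 1.4e-04 and 3.2e-04). With the 6 dDP arrays fitted alone the last adjusted p was 0.0521 (2.2e-04 to 0.0521 over its alternatives). PolZ2, the accessory subunit of the same polymerase, rose by 1.10 ± 0.14, 0.56 ± 0.13 and 0.75 ± 0.13 (limma adjusted p = 2.1e-04, 0.0295 and 0.00193). The de2f1 call of PolZ2 was lost when any 1 of 5 de2f1 arrays was left out (adjusted p 0.0537 to 0.132, over its alternatives 0.00299 to 0.132), and the dDP call with the 6 dDP arrays fitted alone (0.0984, over its alternatives 9.4e-04 to 0.0984).

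PolH, polymerase eta, which copies past ultraviolet lesions, rose by 0.67 ± 0.13, 0.50 ± 0.11 and 0.48 ± 0.11 (limma adjusted p = 0.00619, 0.0337 and 0.0173). These calls were less firm, failing in 2, 9 and 4 of 25 alternatives (limma adjusted p up to 0.0657, 0.157 and 0.111). The dDP call of PolH was among those lost without untreated dDP arrays 2 and 3 (0.60, limma adjusted p = 0.0573, over its alternatives 0.00864 to 0.111). Rev1, a polymerase that inserts cytosine and recruits others, rose by 0.27 ± 0.07 in wild type discs with limma adjusted p = 0.0488, and failed in 18 of 25 alternatives (0.0205 to 0.243). PolI, polymerase iota, did not pass in any genotype (0.13, 0.16 and 0.18).

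Base excision and single-strand break repair cuts out a damaged base and reseals the strand. Of its 10 measured genes 2 rose and 1 fell in each genotype. Parp1, counted among the 10, read only 3.86 to 4.39, below the lower quartile of the arrays (4.51 to 4.60). Over all probe sets 2.59%, 1.37% and 4.45% rose in wild type, de2f1 and dDP discs, and 1.92%, 0.927% and 4.38% fell. The scaffold gene XRCC1 rose by 0.70 ± 0.10 in wild type, 0.48 ± 0.09 in de2f1 and 0.59 ± 0.09 in dDP discs (limma, Benjamini-Hochberg adjusted p = 8.5e-04, 0.0119 and 0.00128). Its de2f1 call was lost without untreated or irradiated de2f1 array 2 (adjusted p = 0.0631 and 0.0699, alternatives at 0.00159 to 0.0699), and its dDP call with the dDP arrays fitted alone (0.0618, over its alternatives 4.4e-04 to 0.0618). The gene gkt, whose product frees DNA ends from trapped topoisomerase, rose by 0.60 ± 0.08, 0.53 ± 0.07 and 0.47 ± 0.07 (limma adjusted p = 2.5e-04, 4.6e-04 and 6.6e-04). These are values of its brightest probe set, and the other 2 probe sets of gkt did not pass after irradiation.

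Rrp1, which codes for the endonuclease that cuts at sites without a base, moved the other way. It read 12.00, 11.98 and 12.01 in untreated and 11.55 and 11.49 in irradiated wild type discs, so the groups were well apart. It fell by 0.48 in wild type discs (-0.48 ± 0.05), and by -0.25 ± 0.04 in both de2f1 and dDP discs (limma adjusted p = 3.6e-05, 0.00659 and 0.00287). The dDP call failed with the dDP arrays fitted alone (adjusted p = 0.17) and without untreated dDP arrays 2 and 3 (0.0763, over its alternatives 5.7e-04 to 0.17). Mismatch repair had 1 of 3 measured genes falling in wild type discs. Over all probe sets 1.92%, 0.927% and 4.38% fell in wild type, de2f1 and dDP discs, and counts among 3 genes say little beside such shares. The gene that fell was the recognition gene Msh6 at -0.46 ± 0.12 (limma adjusted p = 0.0442), a call lost in 15 of 25 alternatives (0.0106 to 0.406). In de2f1 and dDP discs Msh6 (-0.09 and 0.04), Pms2 (0.05 and 0.03) and tos (-0.13 in both) did not pass (limma, 0 of 3 genes in each also at an unadjusted p under 0.05).

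**Figure D3:**
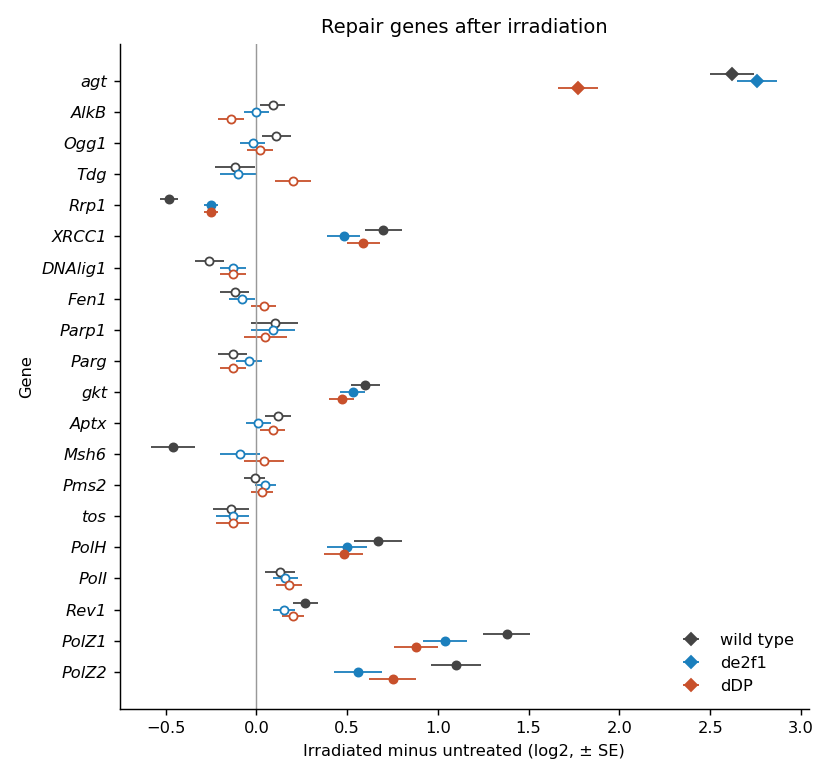
Irradiated minus untreated discs for agt and the 19 measured repair genes, in log2 units with the SE of the limma fit, by genotype. Filled circles passed a Benjamini-Hochberg adjusted p under 0.05, open circles did not, and the diamonds for agt carry no test. agt, which was chosen by this change, lies at 1.77 to 2.76, to the right of every other gene, the nearest being PolZ1 at 0.88 to 1.38.

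In the test of the difference itself, none of the 19 irradiation changes passed for dDP against wild type or for de2f1 against wild type (limma, 5 and 3 genes at an unadjusted p under 0.05). In those comparisons 0.202% and 0.0533% of all probe sets passed. For PolZ1 the difference between dDP and wild type was -0.50, the lowest of the list. The count for dDP was 1 without untreated dDP array 1 and with array weights, where Tdg, a thymine glycosylase gene, passed at 0.47 and 0.41 (limma adjusted p = 0.0104 and 0.0454).

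In untreated discs the dDP mutant had 10 of the 19 genes higher than wild type and 2 lower, beside 12.1% and 15.9% of all probe sets, with a list median of 0.29 against -0.01. Without untreated dDP arrays 2 and 3, 9 genes were called in place of 12. All 3 measured mismatch repair genes were among the higher: tos, an exonuclease gene, by 0.79 ± 0.09, Pms2 by 0.61 ± 0.06 and Msh6 by 0.42 ± 0.11 (limma adjusted p = 9.3e-06, 1.9e-06 and 0.00863). Of the translesion genes 4 of 5 were higher, with PolH at 1.16 ± 0.11, PolZ2 at 1.06 ± 0.13, PolZ1 at 0.37 ± 0.12 and Rev1 at 0.35 ± 0.06 (limma adjusted p = 3.5e-06, 2.0e-05, 0.0276 and 6.9e-04). PolZ1 was lost without untreated dDP arrays 2 and 3 (0.16, limma adjusted p = 0.513) and Msh6 too (0.43, 0.0786), over their alternatives 0.00334 to 0.513 and 0.00174 to 0.0786. PolZ1 also failed without untreated wild type array 2 (adjusted p = 0.122), without untreated dDP array 2 (0.0732) or 3 (0.124), and with the contrast's arrays alone (0.086).

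PolH read 8.78, 8.64 and 8.85 in untreated wild type, 8.65, 8.36 and 8.78 in untreated de2f1 and 9.80, 9.90 and 10.04 in untreated dDP discs. As with agt, untreated dDP discs were apart from both other genotypes, while wild type and de2f1 discs overlapped. Even irradiated wild type discs, at 9.44 and 9.40, lay below untreated dDP discs for PolH, whereas for agt they lay above.

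Of the base excision genes 3 of 10 were higher and 2 lower in untreated dDP discs, beside 12.1% and 15.9% of all probe sets, so the lower count was near the general share. The ligase gene DNAlig1 was higher by 0.76 ± 0.07, Rrp1 by 0.33 ± 0.04 and Aptx, which clears blocked strand ends, by 0.24 ± 0.07 (limma adjusted p = 1.4e-06, 7.0e-05 and 0.0148). Dimmer probe sets of Aptx, at means of 5.73 and 3.97, differed by -0.28 and -0.1 without passing (limma adjusted p = 0.364 and 0.438). gkt was lower by -1.02 ± 0.07 (limma adjusted p = 8.5e-08). Tdg, named because it was the other of the 2 lower genes, was at -0.40 ± 0.10 (limma adjusted p = 0.00571), but at -0.10 without untreated dDP arrays 2 and 3 (adjusted p = 0.374, over its alternatives 5.8e-06 to 0.374). Aptx failed without those arrays too (limma adjusted p = 0.0792) and without untreated wild type array 2 (0.0622), with its alternatives at 0.0079 to 0.0792.

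Untreated de2f1 discs, where agt was lower than in wild type, had 1 of 19 genes higher and 1 lower. Over all probe sets 3.89% and 5.1% were called, so both counts were near the general share. Aptx was higher by 0.36 ± 0.07 and gkt lower by -1.81 ± 0.07 (limma adjusted p = 0.00275 and 8.8e-10). Dimmer probe sets of Aptx, at means of 5.73 and 3.97, differed by -0.44 and -0.06 without passing (limma adjusted p = 0.237 and 0.796). gkt read 10.60, 10.58 and 10.69 in wild type, 8.82, 8.73 and 8.88 in de2f1 and 9.50, 9.65 and 9.66 in dDP discs, all untreated. Both mutants were below wild type, so gkt did not share the opposite directions of agt. One dimmer gkt probe set differed by -3.89 and -4.04 in dDP and de2f1 discs (limma adjusted p = 6.1e-06 and 1.5e-05), and another, near the floor at a mean of 4.55, by -0.12 in both without passing. The list count in de2f1 discs was 5 without untreated dDP array 1 and without the 40% dimmest probe sets, so it was not stable.

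Genes that answer DNA breaks or radiation were set beside agt without a test of the list. Of 14 listed, 13 were measured. Their irradiation differences ran from -0.18 to 2.41 in wild type, -0.16 to 2.74 in de2f1 and -0.25 to 1.59 in dDP discs, with medians of 1.33, 1.00 and 0.87. In untreated dDP discs their median difference from wild type was 0.61, with a range of -0.17 to 1.46, against 1.36 for agt. The member nearest to agt in wild type and de2f1 discs was the p53 target Corp at 2.41 ± 0.26 and 2.74 ± 0.23, less than an SE from agt. These are values of the brightest probe set of each gene. A dimmer probe set of egr, a TNF ligand gene, differed by 2.39 ± 0.26 in dDP discs, above agt at 1.77, against 1.59 for its brighter one.

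The neighbours of agt on the right arm of the third chromosome, taken from the gene order of the RefSeq annotation of assembly Release 6 plus ISO1 MT, had no called rise after irradiation. The nearest genes with a probe set of their own symbol are twr, CG1307 and Taf1 on one side and Edg84A, Ccp84Ag and Ccp84Ae on the other, while lab and Ccp84Af, which lie among them, have none. Of the 6 genes 0 rose in each genotype by limma, beside 2.59%, 1.37% and 4.45% of all probe sets in wild type, de2f1 and dDP discs. For 6 genes, 0 rises is near those shares. The 1 that reached an unadjusted p under 0.05 in each genotype was twr, as a fall. Irradiation differences of the 6 genes lay between -0.34 and 0.13 in all, against 1.77 to 2.76 for agt. Edg84A and Ccp84Ag, both cuticle genes, read 4.63 to 5.18 and 4.07 to 4.62, close to the lower quartile of the arrays, and Ccp84Ae, another cuticle gene, read 5.68 to 6.19.

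twr, a signal peptidase gene whose span overlaps that of agt in this annotation, fell where agt rose. It read 13.08, 13.13 and 13.04 in untreated and 12.78 and 12.72 in irradiated wild type discs. It read 13.16, 13.15 and 13.12 in untreated and 12.97, 12.96 and 12.97 in irradiated de2f1 discs. It read 12.86, 13.02 and 12.92 in untreated and 12.63, 12.51 and 12.71 in irradiated dDP discs. Untreated and irradiated arrays of twr did not overlap in any genotype.

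twr fell by 0.34 in wild type discs (-0.34 ± 0.06) and by 0.32 in dDP discs (-0.32 ± 0.06) (limma, Benjamini-Hochberg adjusted p = 0.00477 and 0.00256). The de2f1 difference of -0.18 ± 0.06 did not pass by limma (adjusted p = 0.163), except with array weights (0.0317). The wild type call was lost without irradiated wild type array 3 (adjusted p = 0.086, alternatives at 9.3e-04 to 0.086), and the dDP call with the dDP arrays alone and without untreated dDP arrays 2 and 3 (0.15 and 0.0831, over its alternatives 5.2e-04 to 0.15). Where the probes of twr and agt lie within the shared span was not analysed here. In untreated dDP discs CG1307 was higher by 0.16 ± 0.05 (limma adjusted p = 0.0141). Taf1, the large subunit of TFIID, was lower by -0.31 ± 0.06 (limma adjusted p = 0.00226). This is 1 of 6 neighbours higher and 1 lower, beside 12.1% and 15.9% of all probe sets, so near the general share. CG1307 failed in 5 of 25 alternatives (limma adjusted p 0.00158 to 0.274) and Taf1 in 1 (2.2e-04 to 0.128), the highest of each being without untreated dDP arrays 2 and 3. None of the 6 passed in untreated de2f1 discs or for the differences of the irradiation change (limma, also 0 at an unadjusted p under 0.05).

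**Figure D4:**
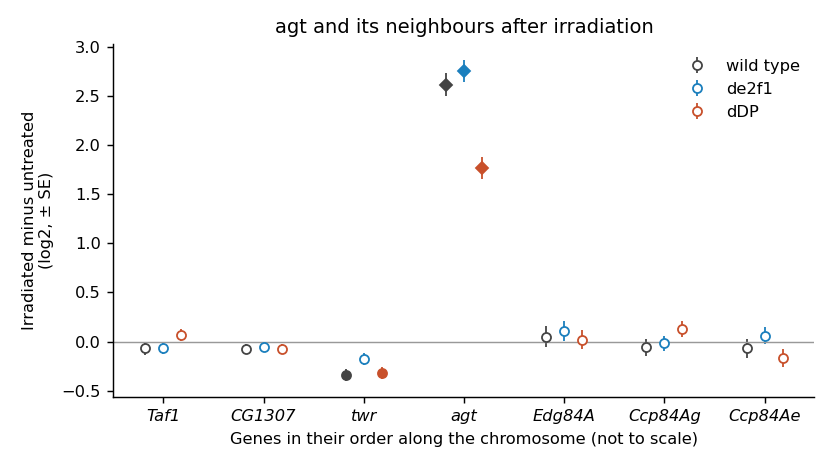
Irradiated minus untreated discs for agt (diamonds, no test) and the 3 measured genes on each side, in log2 units with the SE of the limma fit, in chromosomal order and not to scale. Filled circles passed a Benjamini-Hochberg adjusted p under 0.05, which only twr did (-0.34 in wild type and -0.32 in dDP discs), while agt lies at 1.77 to 2.76.

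The genes whose values ran most like those of agt were found by Pearson's r over the 17 arrays among 11981 other genes. The arrays share a group structure with strong irradiation and genotype differences, so these are descriptions across arrays, not 17 independent samples. The 10 highest were Irbp (0.993), Traf4 (0.989), Corp (0.986), CG18213 (0.980), scaf (0.978), CG42365 (0.978), CG12868 (0.975), Sulf1 (0.975), Xpc (0.974) and CG5664 (0.974). In all 112 genes had r over 0.9, and 15 had r under -0.9. With Spearman's rho 4 of these 10 were again among the 10 highest, and 5 without untreated dDP array 1, so the head of the order depended on the measure and on that array. Irbp, Traf4 and Corp were among the 10 highest by Pearson's r and by rho and over the 6 group means.

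Irbp codes for Ku70, which binds broken DNA ends for joining. It read 8.35, 7.93 and 8.15 in untreated and 10.23 and 10.37 in irradiated wild type discs. It read 7.84, 7.75 and 7.87 in untreated and 9.49, 9.67 and 9.62 in irradiated de2f1 discs. It read 9.07, 9.40 and 9.53 in untreated and 10.38, 10.73 and 10.46 in irradiated dDP discs. The group means fell in the order of agt, but irradiated de2f1 and untreated dDP discs overlapped. Irradiated dDP and wild type discs almost touched.

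Irbp differed after irradiation by 2.16, 1.78 and 1.19 in wild type, de2f1 and dDP discs, and in untreated discs by 1.19 in dDP and -0.32 in de2f1. Corp, a p53 target, gave 2.41, 2.74 and 1.48 after irradiation, then 1.46 and -0.48 untreated. Traf4, an adaptor of TNF receptor signalling, gave 1.14, 1.10 and 0.75, then 0.51 and -0.21. For all 3, as for agt, the dDP change was the smallest on the log2 scale and untreated dDP discs started highest. These genes were picked for their high r with agt on these same arrays, so a shared pattern largely followed from the choice. Xpc, which finds lesions for nucleotide excision repair, gave 0.82, 0.62 and 0.60 after irradiation, and 0.51 and 0.03 untreated, so it lacked the lower de2f1 level of agt.

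Among the listed repair genes PolZ1 stood nearest to agt (r 0.964, rank 20), followed by PolZ2 (0.878), XRCC1 (0.828) and PolH (0.806), whereas AlkB had r -0.431 and Rrp1 -0.241. Of the 13 measured break and radiation genes 7 had r over 0.9, beside 112 of all 11981 genes. Among them were Ku80 at 0.964, rad50 at 0.955, mre11 at 0.949 and DNAlig4 at 0.944. Both agt and this list were chosen with earlier results of these arrays known, so high r values partly followed from the choice. The other 6 ran from 0.869 for RnrL down to 0.405 for okr and 0.401 for tefu. The genes running most opposite were Osi4 (-0.953), CG32447 (-0.919), CG15544 (-0.916), CG9628 (-0.915) and CG1368 (-0.912). Osi4, of the Osiris family, differed by -2.09, -1.69 and -0.76 after irradiation in wild type, de2f1 and dDP discs. The overlapping neighbour twr, at r -0.902, ranked 11969 of 11981.

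**Figure D5:**
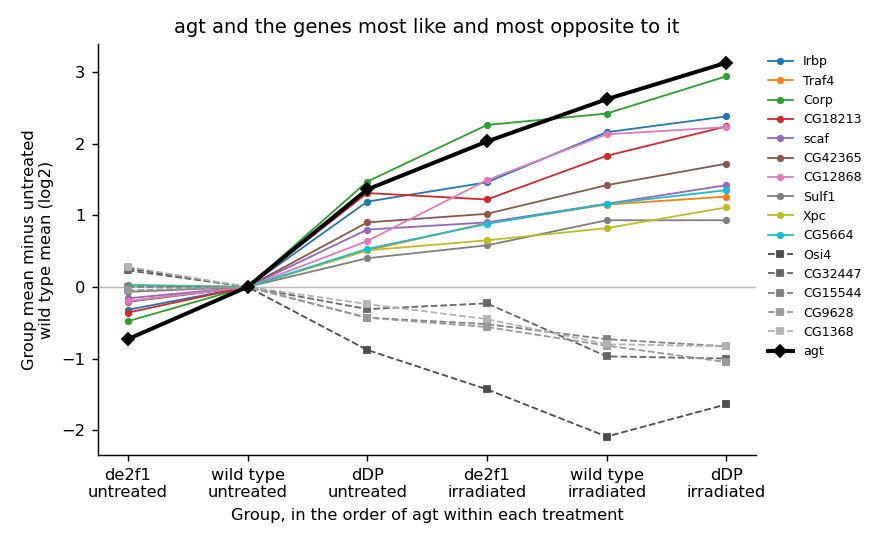
Group means of agt (thick line), the 10 genes with the highest r to it (solid) and the 5 with the lowest (dashed), each as difference from its own mean in untreated wild type discs in log2 units. Groups stand in the order of agt, which runs from -0.73 in untreated de2f1 discs to 2.62 in irradiated wild type discs and higher still in irradiated dDP discs, and Corp (2.41 in irradiated wild type) runs closest to it in size.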

How the data were processed

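The authors deposited log2 values per probe set, for which the submitters' processing notes name RMA (version not given in the sources used here). They were used without further scaling. After 183 control probe sets were left out, 18769 were tested, of which 13647 carried 1 gene symbol, 402 several and 4720 none. Genes (11982) were read from probe sets with 1 symbol, choosing the brightest on average where a gene had several. Group means of all 17 arrays were fitted in R 4.3.3 by limma 3.58.1 (lmFit and eBayes, prior of 2.56 degrees of freedom and SD 0.0935). Calls needed an adjusted p under 0.05 (Benjamini-Hochberg, across every tested probe set). Errors of differences are SEs of that fit. The small number of arrays limits the precision, and p values test differences of group means against the spread between these arrays.

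agt and all gene lists were chosen with earlier results of these data known. Named by rule were agt, Dp, the 3 measured neighbours on each side, up to 8 called repair genes per comparison with the smallest adjusted p, and the 10 highest and 5 lowest r with agt. The break and radiation genes mre11, rad50, Ku80, DNAlig4, RnrL, okr, tefu and egr are members of the listed genes, named with Tdg and Parp1 after their values were seen. Lists held direct reversal, base excision and single-strand break repair, mismatch repair, translesion synthesis, break and radiation response genes, and markers of eye disc, salivary gland, fat body and hemocytes. Thd1, Parp, DNApol-eta and DNApol-iota are Tdg, Parp1, PolH and PolI in the array annotation. DNAlig3, spel1, phr, phr6-4 and spn-A, among others, were not measured by a probe set of their own symbol.

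Results were recomputed with array weights, with trended and with robust priors, with quantile normalization or median centring, without the 40% dimmest probe sets, with every probe set of a gene, in fits of only the contrast's arrays, with a replicate block, and with each array left out in turn. Spearman's rho and group means were tried for the likeness to agt. The fit was tested on simulated data. A planned motif search of the agt promoter was not run, and sequences were not analysed here. Python 3.11.15, pandas 2.3.3 and matplotlib 3.10.9 made tables and figures.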

Additional observations from a re-analysis of the deposited data

Results flagged for a closer look

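Of the 13 measured break and radiation genes, 2 differed between dDP and wild type discs in the test of the difference itself. Over all probe sets 0.202% passed. Irbp, Corp, Xpc and Ku80, listed genes with a higher r to agt than these 2, did not pass. Their differences were -0.97, -0.94, -0.21 and -0.67 (limma adjusted p = 0.0699, 0.443, 0.418 and 0.21). mre11, a nuclease subunit that trims broken ends, rose by 1.92 in wild type, 1.23 in de2f1 and 0.87 in dDP discs, and its dDP change differed from that of wild type by -1.04 (limma, Benjamini-Hochberg adjusted p = 0.00172, over its alternatives 4.3e-04 to 0.03). rad50, of the same complex, rose by 1.39, 1.00 and 0.71, a difference of -0.67 (limma adjusted p = 0.00993). The rad50 call was lost with the arrays of the contrast alone (adjusted p = 0.124) and without irradiated wild type array 1 (0.0741) or 3 (0.0603). The difference for agt was -0.85, with no test. No group had more than 3 arrays, so single arrays of a group were not tested for standing apart from the others.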

How the results depend on the processing

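Leaving out each array in turn kept every direction of agt. Its irradiation change ran from 2.54 to 2.67 in wild type, 2.70 to 2.81 in de2f1 and 1.66 to 1.85 in dDP discs. The untreated difference from wild type ran from 1.28 to 1.47 in dDP and -0.81 to -0.67 in de2f1, and the irradiated one from 0.42 to 0.57 and -0.64 to -0.53. The difference of the change ran from -0.96 to -0.77 for dDP and 0.08 to 0.22 for de2f1. Quantile normalization and median centring turned no direction of agt. Added after seeing the data, leaving out untreated dDP arrays 2 and 3 gave 1.98 for the dDP change, 1.15 for the untreated difference and -0.63 for the difference of the change. The linear scale, also added later, reversed the last for dDP (373 units) and for de2f1 (-570 units).

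Counts of called repair genes moved more. The 8 in irradiated wild type discs became 5 to 9 with 1 array left out (5 without irradiated wild type array 1 or 3), the 6 in de2f1 3 to 6 (3 without untreated or irradiated de2f1 array 2) and the 6 in dDP discs 5 to 8, but 1 with the dDP arrays alone and 4 without untreated dDP arrays 2 and 3. The 12 in untreated dDP discs became 10 to 13, and 9 without untreated dDP arrays 2 and 3, the 2 in untreated de2f1 discs 2 to 5 (5 without untreated dDP array 1, and 5 without the 40% dimmest probe sets). For the dDP difference of the change the 0 became 0 to 1, and 1 with array weights. For the de2f1 difference it was 0 throughout.

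Of the neighbours, the 1 call in wild type became 0 to 1 (0 without irradiated wild type array 3). The 0 in de2f1 became 1 with array weights. The 1 in dDP discs became 1 to 2 (2 without untreated dDP array 1), 0 with the dDP arrays alone and 0 without untreated dDP arrays 2 and 3. The 2 in untreated dDP discs became 1 to 3 (1 without untreated wild type array 3 or untreated dDP array 3), and 1 with the contrast's arrays alone or without untreated dDP arrays 2 and 3. The 10 genes most like agt shared 5 to 10 with 1 array left out (5 without untreated dDP array 1) and 4 with Spearman's rho, 7 over group means and 8 after quantile normalization. The causes were not tested.

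No pairing by replicate number was evident: of 40 same-numbered pairs 7 correlated over 0.1 in their deviations (-0.395 to 0.459). With 2 or 3 arrays per group, this cannot exclude a pairing. Subtracting same-numbered arrays (replicate block) gave agt changes of 2.54, 2.76 and 1.77 in wild type, de2f1 and dDP discs, untreated differences of 1.36 and -0.73, irradiated ones of 0.42 and -0.64, and differences of the change of -0.77 and 0.22 (dDP, de2f1). With the block 7, 5 and 6 repair genes were called after irradiation, 12 and 2 in untreated dDP and de2f1 discs, and 1, 0, 1, 2 and 0 neighbours. PolH in de2f1 (adjusted p = 0.0719 by limma) and Rev1 in wild type (0.0996) were lost.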
